A study of Mus musculus with 4 samples.

Results

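The chromatin at the genes that receive the IL-4 signal was examined in wild-type mouse bone marrow-derived macrophages (BMDMs). The genes were Il4ra, Il13ra1 and Il2rg, which encode receptor chains, Jak1, Jak2, Jak3 and Tyk2, which encode Janus kinases, and Irs2, which encodes an adaptor of the receptor. ATAC-seq, in which the Tn5 transposase inserts sequencing adapters into open DNA, gave 4 libraries. Control BMDMs were left untreated (control 1 and control 2), and IL-4-treated BMDMs received 20 ng/ml of IL-4 for 1 h (IL-4 1 and IL-4 2). All cells were wild type, came from C57BL/6 mice aged 8 to 12 weeks, and had been grown from bone marrow over 6 days with L929 cell supernatant, a source of M-CSF. Overlapping peaks of the 4 libraries (1 bp or more in common) formed a region, and each region was given to the gene that its highest peak names. That is the gene of the nearest transcription start site (TSS) in the annotation of the deposited peaks, which need not hold every RefSeq model. By this rule 57 of 60710 regions belonged to the 8 genes, with 6 regions for Il4ra, 7 for Il13ra1, 3 for Il2rg, 16 for Jak1, 7 for Jak2, 1 for Jak3, 3 for Tyk2 and 14 for Irs2. Distances from the TSS are given as in the files. They differed from those to the RefSeq start site by at most 145 bp at 7 of the genes but by 495 to 519 bp at Irs2. The nearest gene is not necessarily the gene that a region acts on.

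IL-4 binds the IL-4 receptor alpha chain, which then pairs either with the common gamma chain (Il2rg) or with the IL-13 receptor chain Il13ra1. The kinases bound to the chains (Jak1 on Il4ra, Jak3 on the common gamma chain, Jak2 and Tyk2 on Il13ra1) phosphorylate the receptor, which recruits STAT6 and the adaptor IRS2. Phosphorylated STAT6 enters the nucleus and binds TTC and GAA half-sites spaced by 4 bases, while IRS2 leads to PI3 kinase. In macrophages this pathway drives alternative polarization.

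Accessibility is given as peak height, the −log10 of the q-value that the peak caller gave each peak within its library. A height has no read count behind it here and depends on sequencing depth, which is unknown. The libraries held 39462 to 45250 peaks, and the median height was lowest in IL-4 2 (6.41, against 7.46 to 8.04 in the other libraries). For that reason heights were set side by side as deposited, but differences were tested on quantile-normalised log2 heights with limma. Of 9 macrophage markers, 5 had a promoter peak in all 4 libraries, among them Cd68 with heights of 12.0 to 20.1, whereas no promoter peak was called at Csf1r, Adgre1, Itgam or Spi1 in any library. None of the 4 markers each of T cells, B cells, fibroblasts and mast cells had a promoter peak in all 4 libraries, although Kit had one in both IL-4 libraries only (5.34 and 3.64). S100a8, 1 of 4 granulocyte markers, had one in all 4 libraries, at heights of 2.49 to 6.63. The part of other cells in the values below was not tested.

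The sequences that carry the main contrasts are printed on the plus strand of mm10, 5′ to 3′. The first is the strongest region of these genes that was called only after IL-4, the next pair are the regions with the lowest heights after IL-4 relative to control, and the last pair hold a STAT-type sequence near the centre and had heights that overlapped between the groups. Capitals mark every match, on either strand, to TTC and GAA spaced by 4 bases (the STAT6 spacing), TTCNNNGAA (the spacing of 3 bases used by other STATs), TGANTCA (AP-1) or AGGAAGT (a core of the PU.1 site).
Jak2, 12110 bp upstream, chr19:29239603-29239834: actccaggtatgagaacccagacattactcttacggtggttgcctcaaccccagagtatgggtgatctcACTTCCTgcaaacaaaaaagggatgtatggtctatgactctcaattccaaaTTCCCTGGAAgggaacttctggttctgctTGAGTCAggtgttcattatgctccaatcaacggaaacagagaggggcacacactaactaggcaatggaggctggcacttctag
Jak1, intron 1, chr4:101202719-101202969: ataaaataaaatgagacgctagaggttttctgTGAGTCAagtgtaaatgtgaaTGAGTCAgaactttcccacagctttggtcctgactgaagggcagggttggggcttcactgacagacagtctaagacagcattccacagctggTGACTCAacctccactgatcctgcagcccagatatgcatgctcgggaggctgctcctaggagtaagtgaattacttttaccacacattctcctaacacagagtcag
Jak1, intron 1, chr4:101234453-101234665: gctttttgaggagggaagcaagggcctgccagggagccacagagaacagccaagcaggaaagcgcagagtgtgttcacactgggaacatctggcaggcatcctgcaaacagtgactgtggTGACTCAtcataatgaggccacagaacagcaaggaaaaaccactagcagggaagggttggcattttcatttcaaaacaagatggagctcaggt
Irs2, 1205 bp upstream in the file, chr8:11009473-11009764: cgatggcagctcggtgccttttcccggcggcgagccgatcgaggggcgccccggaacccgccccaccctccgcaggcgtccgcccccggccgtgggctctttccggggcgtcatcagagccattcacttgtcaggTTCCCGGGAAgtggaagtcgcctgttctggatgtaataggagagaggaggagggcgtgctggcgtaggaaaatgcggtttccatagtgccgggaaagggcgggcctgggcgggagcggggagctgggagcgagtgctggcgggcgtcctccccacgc
Il4ra, intron 1, chr7:125561336-125561608: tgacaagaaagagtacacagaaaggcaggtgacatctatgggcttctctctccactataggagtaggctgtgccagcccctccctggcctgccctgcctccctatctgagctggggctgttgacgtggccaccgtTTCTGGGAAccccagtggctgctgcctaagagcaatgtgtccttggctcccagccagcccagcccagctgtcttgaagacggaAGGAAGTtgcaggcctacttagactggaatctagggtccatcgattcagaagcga
The Jak2 sequence holds TTCCCTGGAA 9 bp from its centre, with an AP-1 match and a PU.1 core match on either side. The intronic sequence of Jak1 at 62442 bp from the TSS holds 3 AP-1 matches, and the one at 30726 bp holds 1. The Irs2 sequence holds TTCCCGGGAA 6 bp before its centre, and the Il4ra sequence holds TTCTGGGAA, the 3-base spacing, 3 bp from its centre. No matches within a member region shared a base.

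Most of the regions lay away from promoters. Introns held 31 of the 57 regions (54.4%, against 40.2% of all regions), intergenic sequence held 18 (31.6% against 35.8%) and promoters held 8 (14.0% against 18.8%). A peak was called in all 4 libraries at 25 regions (43.9% against 41.9%) and in a single library at 22 (38.6% against 29.6%), and only 1 region had a peak in 3 libraries (1.75% against 13.3%). The 22 single-library regions were weak, with heights of 2.49 to 6.96 and a median of 4.195, and 10 of them came from control 1. The member regions held 43 and 33 peaks in control and 37 and 39 in IL-4. The mean was 38.0 in both groups (SD 7.07 and 1.41, n = 2 each), with a difference of 0 (exact permutation test, two-sided, p = 1, where 2 against 2 libraries cannot go below 0.3333).

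**Figure D1:**
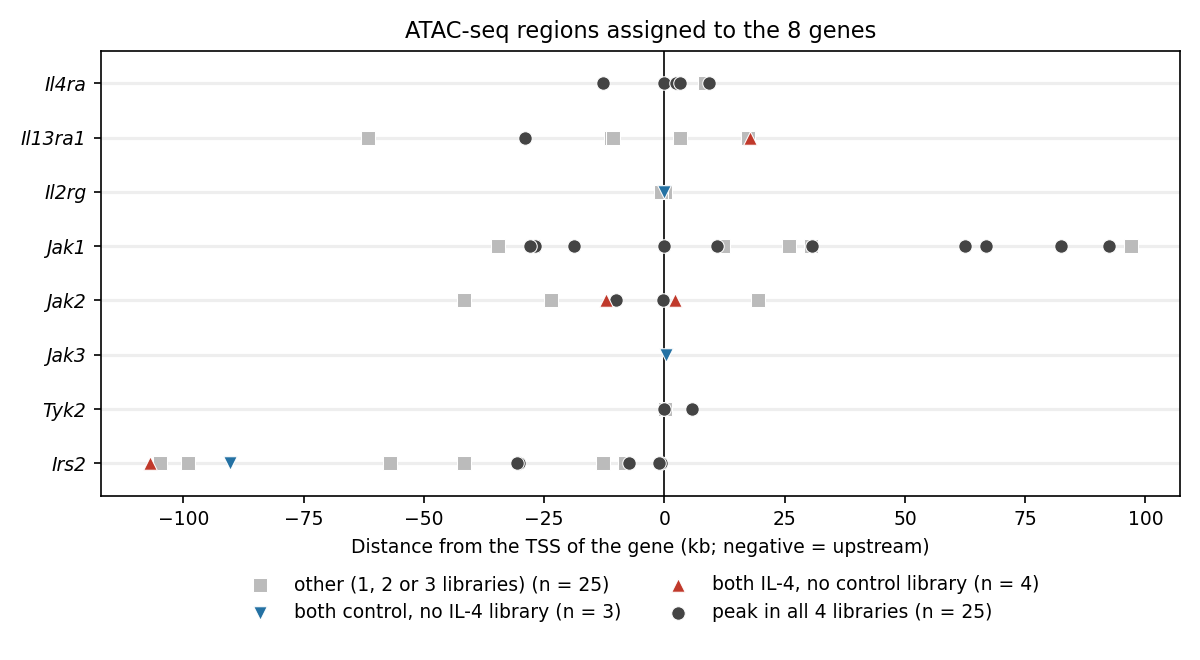
Position of the 57 regions of the 8 genes, as distance from the TSS in kb (negative is upstream), with 1 row per gene. Circles mark the 25 regions found in every library, upward triangles the 4 regions with a peak in both IL-4 libraries and no control library, downward triangles the 3 regions with the opposite pattern, and squares the other 25 regions; Jak1 and Irs2 have the widest spread of regions.

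Whether 1 h of IL-4 altered accessibility at these genes was asked in 2 ways. The limma fit covered 25442 regions that had a peak in every library, including 25 regions of the 8 genes, and no member region passed an adjusted p of 0.05 (Benjamini-Hochberg) in either direction. Over all regions tested, 0.0157% were higher and 0.00786% lower in IL-4 at that threshold, which is 4 and 2 regions. At an unadjusted p under 0.05, 1 member region was higher and 5 were lower in IL-4, where the whole table gave 4.12% higher and 4.15% lower. The lowest adjusted p of a member region was 0.228. The log2 differences between IL-4 and control ran from −1.78 to 1.17 with a median of −0.11, against a median of −0.0006 and an SD of 0.50 over all 25442 regions, and their standard errors ran from 0.25 to 0.55. Normalised IL-4 heights were higher at 11 member regions and lower at 14 (44.0% higher, against 49.9% of all regions tested). In the deposited heights both IL-4 libraries lay below both control libraries at 9 of the 25 regions (background 29.3%) and above them at 1 (background 8.83%).

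The other way was presence of a peak. A peak in both IL-4 libraries and in neither control library (an IL-4-only region) was found at 4 of the 57 regions, or 7.02%, against 2.53% of all 60710 regions. The opposite pattern (control-only) was found at 3 of 57, or 5.26%, against 4.33%. The 4 IL-4-only regions belonged to Jak2 (2 regions), Il13ra1 and Irs2, and the 3 control-only regions to Il2rg, Jak3 and Irs2. Leaving out a library can only raise these counts, because fewer libraries then have to meet the rule. When IL-4 1 or IL-4 2 was left out, the IL-4-only pattern was found at 8 and 9 member regions (9.37% and 9.19% of all regions), and when control 1 or control 2 was left out, the control-only pattern was found at 6 and 13 (11.0% and 13.7%). With only peaks above the pooled median height of 7.37, the Jak2 region 12110 bp upstream was the 1 IL-4-only region left. That is 1 of 27 member regions, against 1.89% of all regions in that setting. A missing peak means that the caller found none, not that the region had no reads. With every absent peak set to the lowest height of its library, the limma fit over 42752 regions called none of these 7 regions and no region at all, whereas 4816 had an unadjusted p under 0.05. At these 7 regions all values of 1 group were filled in, so that fit does not test them.

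**Figure D2:**
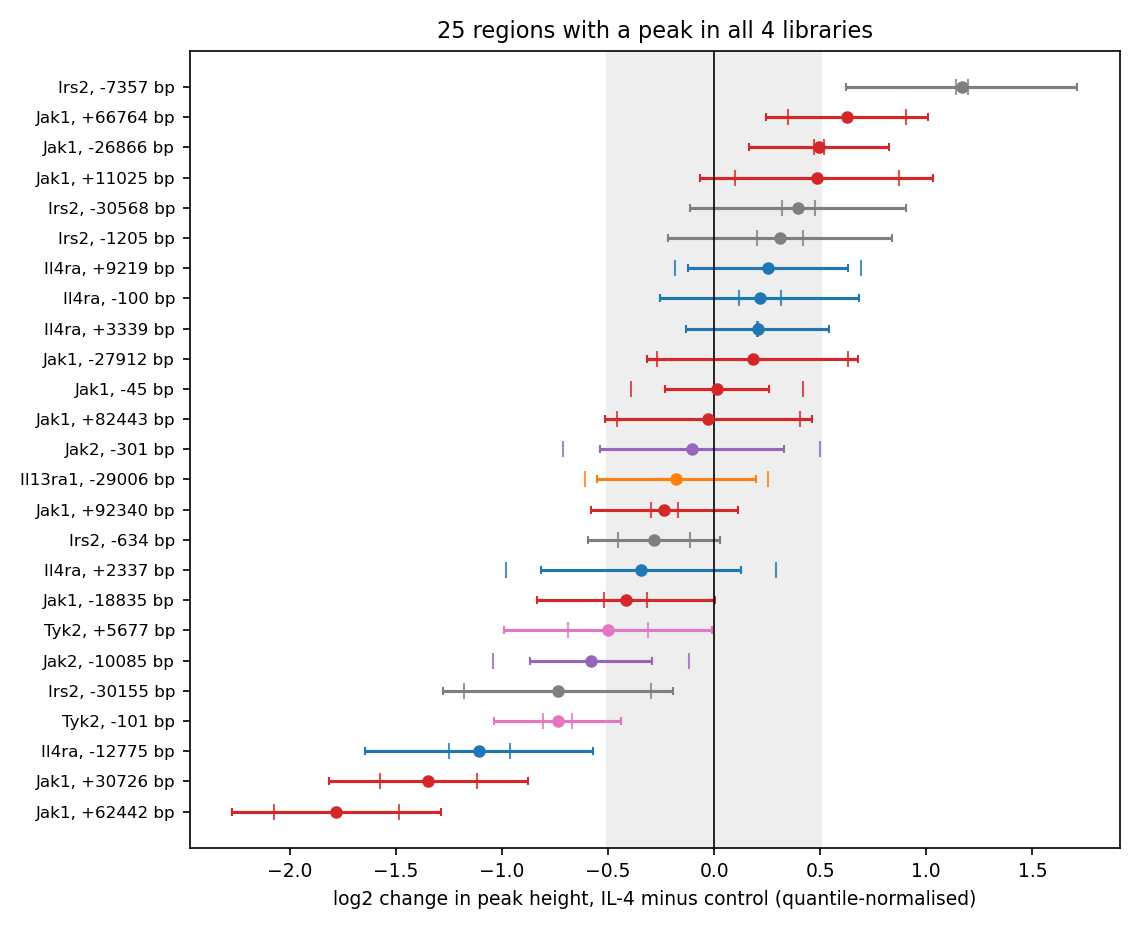
Difference in log2 peak height, IL-4 minus control after quantile normalisation, at the 25 regions of these genes with a peak in all 4 libraries, coloured by gene. Circles are the limma estimates with bars of 1 standard error, small ticks are the differences within replicate numbers 1 and 2, and the grey band is 1 SD (0.50) of the differences over all 25442 regions; the estimates run from −1.78 at the Jak1 intron to 1.17 upstream of Irs2, and none passed an adjusted p of 0.05.

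Il4ra, the chain that binds IL-4 itself, had open chromatin at its promoter and in intron 1 in both groups. The promoter region (chr7:125552041-125552313, 100 bp upstream) had heights of 9.69 and 8.52 in control and 10.6 and 7.34 in IL-4. These groups overlapped, and the log2 difference was 0.21 (SE 0.47, adjusted p = 0.943 in limma). The region at 9219 bp in intron 1, printed above, had heights of 18.0 and 10.0 in control and 14.3 and 13.2 in IL-4 (log2 difference 0.25, SE 0.38, adjusted p = 0.916). Its IL-4 values lay between the control values. The regions at 2337 and 3339 bp in the same intron had heights of 4.49 to 20.4, and both overlapped between the groups. The highest of them was 20.4 in IL-4 1 at 3339 bp.

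The exception at Il4ra was the region 12775 bp upstream (chr7:125539371-125539682), where the heights were 13.3 and 6.98 in control and 5.10 and 2.79 in IL-4. Both IL-4 values lay below both control values, with a log2 difference of −1.11 (SE 0.54, unadjusted p = 0.0443, adjusted p = 0.588 in limma). A more negative difference was estimated at 443 of the 25442 regions. Because the groups did not overlap, any pairing of the libraries gives a negative difference (−1.25 and −0.96 by replicate number). The limma difference was −0.73 without control 1.

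Il13ra1, the chain that joins Il4ra in the receptor shared by IL-4 and IL-13, had no peak at its promoter in any library. Its nearest region was 3245 bp into the gene, in intron 1, and had a peak in IL-4 1 alone (height 2.95). The only Il13ra1 region with a peak in all 4 libraries lay 29006 bp upstream (chrX:36082965-36083301), with heights of 15.8 and 17.0 in control and 9.33 and 17.0 in IL-4. The groups overlapped because IL-4 2 was as high as the control libraries (log2 difference −0.18, SE 0.37, adjusted p = 0.941). In intron 2, at 17709 bp, a region of 184 bp was IL-4-only with heights of 5.34 and 2.49. A control 1 peak of height 6.96 lay 48 bp away, at 17456 bp, and the weaker IL-4 height ranked 1245 of the 1534 IL-4-only regions. When peaks up to 500 bp apart were merged, these peaks joined and the IL-4-only call at Il13ra1 was lost. The farthest region, 61615 bp upstream, fell in intron 44 of the neighbouring gene Dock11.

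Il2rg encodes the common gamma chain. Its 3 regions were all within 685 bp of the TSS and none had a peak in more than 2 libraries. The promoter region 61 bp upstream (chrX:101268200-101268334) was control-only, with heights of 5.36 and 3.78. IL-4 1 had a peak of height 4.11 close by at 96 bp on the other side of the TSS, 40 bp from that region, and IL-4 2 had none in any of the 3 regions. When peaks up to 500 bp apart were merged, the control-only call at Il2rg was lost as well.

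The kinases differed in the number of regions assigned to them, which was not set against the length of their loci. Jak1, the kinase that sits on Il4ra, had the largest number of regions (16) and 10 of them had a peak in all 4 libraries. Its promoter region (chr4:101264863-101265495, 633 bp) had heights of 26.7 and 28.6 in control and 33.8 and 18.5 in IL-4. The IL-4 values lay on either side of the control values, and the log2 difference was 0.01 (SE 0.25, adjusted p = 0.995). The SE, which limma draws toward a trend over all regions tested, was the smallest among the 25 regions.

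Within Jak1 the widest contrast between the groups was in intron 1. At 62442 bp from the TSS, in the region with 3 AP-1 matches, the heights were 19.1 and 13.6 in control and 4.11 and 3.78 in IL-4. The 2 control libraries were both far above the 2 IL-4 libraries, with a log2 difference of −1.78 (SE 0.49, unadjusted p = 0.000646, adjusted p = 0.228 in limma). A more negative difference was estimated at 13 of the 25442 regions. With both IL-4 values below both control values, any pairing of the libraries gives a negative difference (−2.08 and −1.48 by replicate number). The limma difference lay between −2.03 and −1.63 under every alternative that gave a value. No alternative that kept every library had an adjusted p under 0.05. At least 3 AP-1 matches were found in 282 of the 60710 regions (0.465%).

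A second region of intron 1, at 30726 bp, was chosen for description after its values were seen. Its heights were 14.4 and 17.0 in control and 5.89 and 4.69 in IL-4, again without overlap (log2 difference −1.35, SE 0.47, unadjusted p = 0.00565, adjusted p = 0.374). A more negative difference was estimated at 152 regions. IL-4 2 also had a separate peak of height 4.55 at 30466 bp, 65 bp away. The same intron held the region of Jak1 with the highest positive difference, at 66764 bp, with heights of 11.7 and 11.2 in control and 19.7 and 11.6 in IL-4 (log2 difference 0.63, SE 0.38, adjusted p = 0.693). There the control values and IL-4 2 were close together and IL-4 1 stood above them.

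The region at 82443 bp, in intron 5 of Jak1, holds TTCCCCTGAA, a match to the STAT6 spacing 138 bp from its centre. Its heights were 6.57 and 15.3 in control and 7.66 and 9.03 in IL-4, so the control libraries alone spanned more than the IL-4 libraries (log2 difference −0.03, SE 0.49, adjusted p = 0.995). The region at 25840 bp was the single member region with a peak in 3 libraries, at 2.67 in control 1, 9.17 in IL-4 1 and 3.85 in IL-4 2. Upstream of Jak1, 3 regions between 26866 and 27912 bp overlapped the lncRNA model Gm12796. The start of that model (chr4:101295686) is nearer to these regions than the Jak1 start site (chr4:101265223). The first of these regions had heights of 16.0 and 13.5 in control and 20.0 and 16.0 in IL-4.

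Jak2, a kinase that can bind Il13ra1, had the strongest IL-4-only region. At 12110 bp upstream of the TSS (chr19:29239603-29239834, 232 bp) the heights were 20.7 in IL-4 1 and 12.9 in IL-4 2, and no peak was called in either control library. The weaker of its IL-4 heights ranked 10 of the 1534 IL-4-only regions, whose median weaker height was 3.73. The file places the region in intergenic sequence, and in the RefSeq annotation it lies inside an exon of the lncRNA model Gm41829, on the minus strand. The start of that model (chr19:29245420) is nearer than the Jak2 start site (chr19:29251803) to this region and to the one 10085 bp upstream. In the limma fit with absent peaks at the lowest height, the log2 difference was 3.75 (SE 0.60), and its adjusted p was 0.389. Both control values were filled in there, so these values do not test the region. That fit called no region in the whole table.

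The sequence of the Jak2 region was the only one of the 4 IL-4-only regions of these genes to hold the STAT6 spacing. Over the whole series the STAT6 spacing was found in 30.9% of the IL-4-only set, 2.24% of the control-only set and 7.22% of all 60710 regions. In windows of 200 bp at the region centres the shares were 29.9%, 2.28% and 6.35%.

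**Figure D3:**
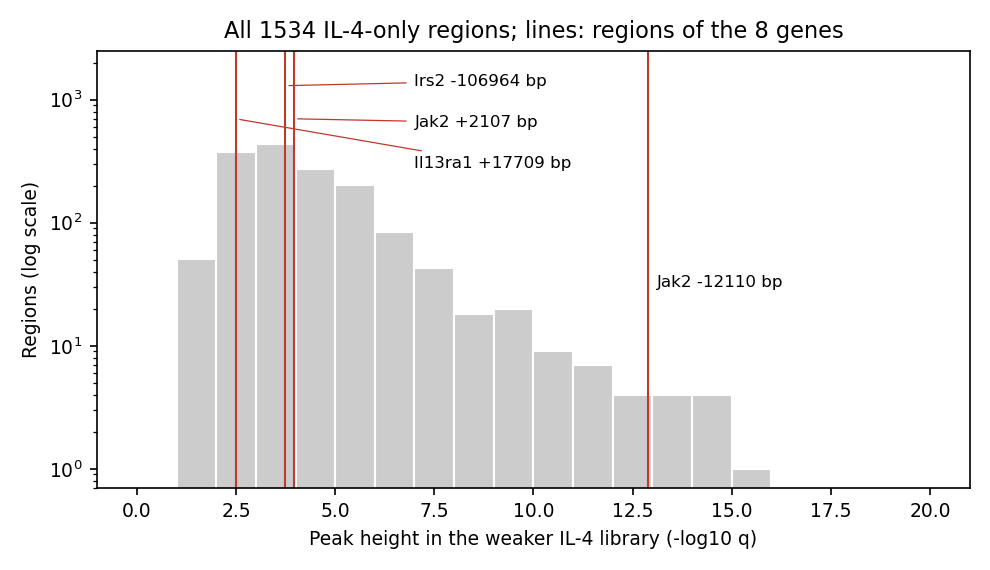
Histogram of all 1534 IL-4-only regions by peak height (−log10 q) in the weaker IL-4 library, with the number of regions on a log scale. Vertical lines mark the 4 IL-4-only regions of these genes; the Jak2 region 12110 bp upstream, at 12.9, lies in the far right of the distribution, 2 others lie at 3.95 and 3.73, where the median of the distribution is 3.73, and the Il13ra1 region lies below it at 2.49.

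The neighbouring open region, 10085 bp upstream of Jak2 (chr19:29241584-29241911), had a peak in all 4 libraries. Its heights were 28.4 and 26.1 in control and 24.6 and 10.4 in IL-4 (log2 difference −0.58, SE 0.29, unadjusted p = 0.0498, adjusted p = 0.603). The difference came mostly from IL-4 2, with −0.12 for replicate number 1 and −1.04 for replicate number 2. The Jak2 promoter region (chr19:29251198-29251856) had heights of 14.9 and 9.86 in control and 8.07 and 11.3 in IL-4, which overlapped (log2 difference −0.11, SE 0.43, adjusted p = 0.974). In intron 2, at 2107 bp, a second IL-4-only region had heights of 6.10 and 3.95, with a rank of 672 of 1534.

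Jak3, the partner kinase of the common gamma chain, had a single region in the whole series, in intron 1 at 286 bp from the TSS (chr8:71676595-71676746). It was control-only, with heights of 2.75 and 8.32, and the weaker height ranked 2215 of 2630 control-only regions. No peak of Jak3 was called in the IL-4 libraries. With absent peaks at the lowest height the log2 difference was −1.46 (SE 0.90, adjusted p = 0.624 in limma). Both IL-4 values were filled in there, so these values do not test the region.

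Tyk2 is the kinase that shares Il13ra1 with Jak2. Its promoter region (chr9:21131203-21131581) had heights of 34.5 and 21.5 in control and 20.7 and 10.0 in IL-4. The lower control value and the higher IL-4 value were nearly equal, and the log2 difference was −0.74 (SE 0.30, unadjusted p = 0.0164, adjusted p = 0.478). Because the groups did not overlap, any pairing of the libraries gives a negative difference (−0.67 and −0.81 by replicate number). The size of the limma difference depended on single libraries, at −0.37 without IL-4 2, −0.46 without control 1 and −1.08 without IL-4 1. The region in intron 3, at 5677 bp, had heights of 13.7 and 8.11 in control and 7.57 and 5.20 in IL-4 (log2 difference −0.50, SE 0.49, adjusted p = 0.852). As deposited, both of these Tyk2 regions were lower in each IL-4 library than in either control library. That order was found at 29.3% of the 25442 regions tested.

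**Figure D4:**
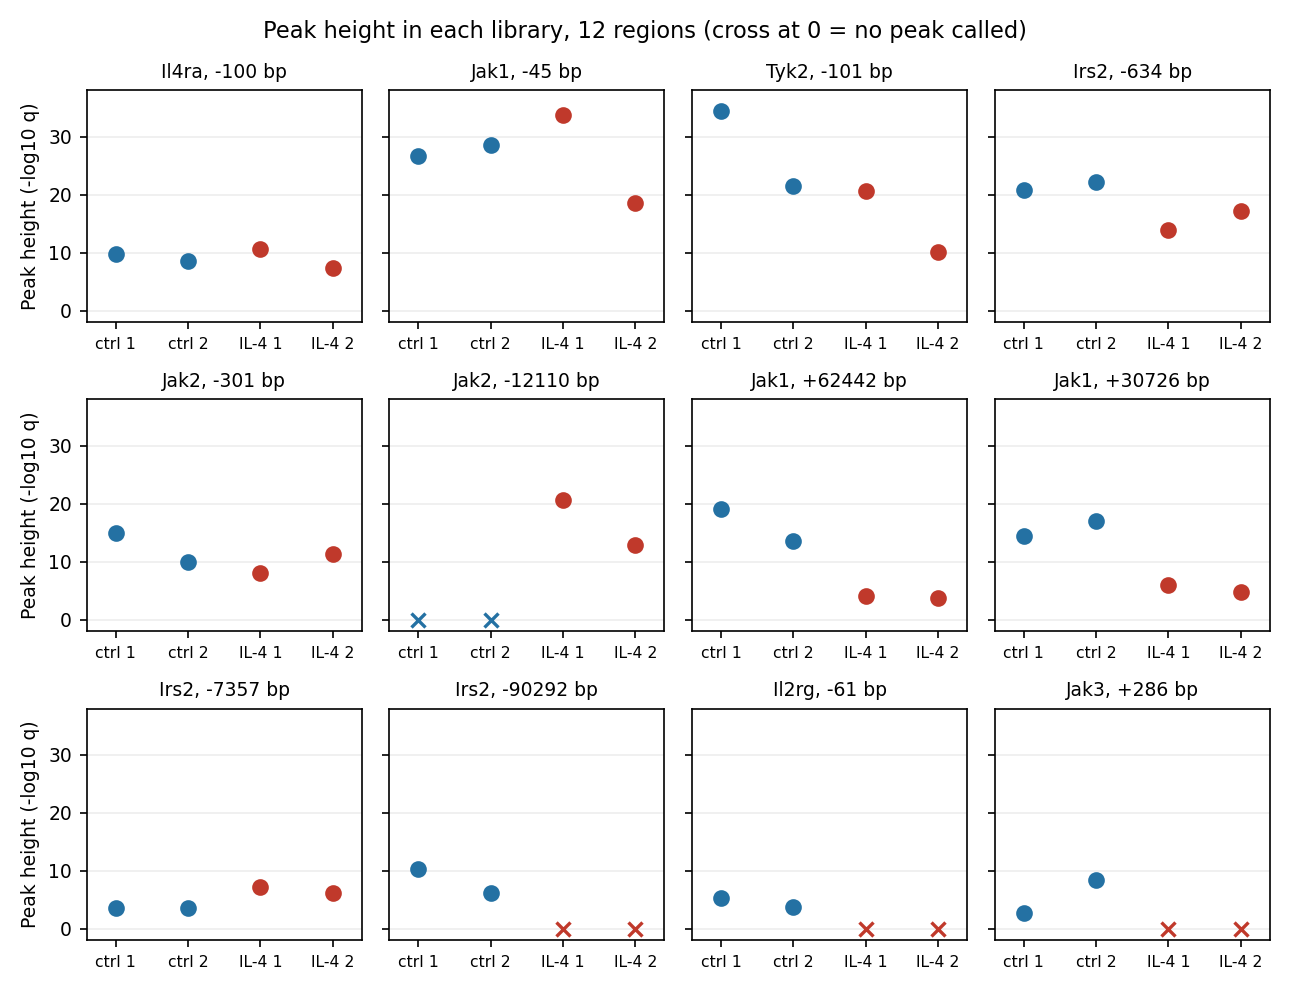
Peak height (−log10 q, as deposited) in each of the 4 libraries at 12 regions of the 8 genes, with control in blue, IL-4 in red and a cross at 0 where no peak was called. The promoter regions of Il4ra, Jak1 and Jak2 overlapped between the groups; the Jak2 region 12110 bp upstream had peaks of 20.7 and 12.9 in the IL-4 libraries only, and the 2 intronic regions of Jak1 were lower in both IL-4 libraries.

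Irs2, the adaptor, had 14 regions, spread over 106964 bp upstream of the TSS. The promoter region (chr8:11008842-11009246) had heights of 20.8 and 22.2 in control and 13.8 and 17.2 in IL-4. The groups did not overlap as deposited, and after normalisation the log2 difference was −0.29 (SE 0.31, adjusted p = 0.870). By the RefSeq start site (chr8:11008929) this region spans the TSS. The next region, 1205 bp upstream in the file and 689 bp by RefSeq, holds the STAT6 spacing close to its centre and had nearly equal heights in all libraries, 6.68 and 5.73 in control and 6.68 and 6.27 in IL-4 (log2 difference 0.31, SE 0.53, adjusted p = 0.928). It is GC-rich (66% in the central 200 bp).

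The region 7357 bp upstream of Irs2 (chr8:11015635-11015938) had heights of 3.62 and 3.52 in control and 7.21 and 6.17 in IL-4. It was the only one of the 25 regions where both IL-4 libraries were above both controls (log2 difference 1.17, SE 0.54, unadjusted p = 0.0363, adjusted p = 0.568 in limma). Any pairing of the libraries is then positive (1.20 and 1.14 by replicate number). A higher difference was estimated at 413 regions. The region 30155 bp upstream had the opposite order, with heights of 9.09 and 7.05 in control and 3.62 and 4.69 in IL-4 (log2 difference −0.74, SE 0.54, adjusted p = 0.773). Its neighbour, 30568 bp upstream, had heights of 6.74 to 8.19 in all libraries. These regions lie in introns of the lncRNA gene 9530052E02Rik. In the RefSeq annotation that gene starts within an exon of Irs2 (at chr8:11007850) and runs in the opposite direction.

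Farther upstream of Irs2 a control-only and an IL-4-only region lay within the same intergenic stretch. The control-only region, 90292 bp upstream (chr8:11098623-11098819), had heights of 10.3 and 6.18 and ranked 270 of 2630. The IL-4-only region, 106964 bp upstream (chr8:11115296-11115494), had heights of 4.11 and 3.73 and ranked 747 of 1534. Within 50 kb of a TSS, the 8 genes held 3 IL-4-only regions and 2 control-only ones. The shares among all regions within that distance were not computed, so these counts have no background.

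Among the promoters, 5 of the 8 genes had a region with a peak in all 4 libraries. In control, the mean promoter height was 28.0 ± 9.24 for Tyk2, 27.6 ± 1.36 for Jak1, 21.5 ± 1.00 for Irs2, 12.4 ± 3.55 for Jak2 and 9.11 ± 0.83 for Il4ra (SD, n = 2). In IL-4, it was 26.1 ± 10.8 for Jak1, 15.5 ± 2.40 for Irs2, 15.4 ± 7.55 for Tyk2, 9.67 ± 2.26 for Jak2 and 8.97 ± 2.30 for Il4ra (SD, n = 2). The means of Jak1, Tyk2 and Irs2 fell in another order in each group. However, Tyk2 differed from Jak1 in control and from Irs2 in IL-4 by less than its SD, so no difference in order is shown. In both groups Jak2 and Il4ra had the lowest means. The heights of Jak1 (18.5 to 33.8) lay wholly above those of Il4ra (7.34 to 10.6). By the mean over the 4 libraries, Jak1 stood at the 91.2nd percentile of the 7919 promoter regions covered in every library and Il4ra at the 26.6th. Height is the strongest peak in a region and not a read density per length, and the promoter regions were 273 to 659 bp long, so the order is one of evidence for a peak. The promoter regions most like that of Il4ra over the 4 normalised log2 heights were those of Paqr4, Smarcc2 and Pacs2, at Euclidean distances of 0.103, 0.117 and 0.122.

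The GC content of the central 200 bp was 48.5% to 50.5% at the 3 promoter regions of Il2rg, 57% at Tyk2, 62% at Il4ra, 69.5% at Irs2, 72.5% at Jak1 and 84.5% at Jak2, where the median of those 7919 promoter regions was 65.5%. None of the RefSeq promoters of the 8 genes (GRCm38.p6, 250 bases before the TSS and 50 bases from it) held any of the 4 sequences searched, which were found in 6.95% (STAT6 spacing), 8.30% (TTCNNNGAA), 7.81% (TGANTCA) and 9.35% (AGGAAGT) of 32851 promoters. Over the 57 regions the STAT6 spacing was found in 3 (5.26%, against 7.22% of all regions), and TTCNNNGAA in 6 (10.5% against 6.90%). TGANTCA was found in 16 (28.1% against 21.8%) and AGGAAGT in 15 (26.3% against 22.2%). The 3 regions with the STAT6 spacing, 1 each at Jak2, Irs2 and Jak1, had different patterns, being IL-4-only, level between the groups and variable among the controls. A match is a description of the letters and not of a bound site.

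The other genes of the pathway were covered by a list of 40 genes, of which 36 had at least 1 region and Il4, Chil3, Il13ra2 and Il2rb had none. Their 314 regions included 124 with a peak in all 4 libraries, and limma called 0 higher and 0 lower at the adjusted threshold. At an unadjusted p under 0.05, 9 of the 124 were higher and 4 lower, where the whole table gave 4.12% higher and 4.15% lower. IL-4-only regions made up 11 of the 314 (3.50%, against 2.53% of all regions) and control-only regions 20 (6.37% against 4.33%). The 5 STAT genes (24 regions) had no group-only region. Other receptor chains (26 regions) had 1 IL-4-only region (3.85%) and 2 control-only ones (7.69%). The IL-4 target genes (96 regions) had 5 of each kind (5.21%). The adaptor and PI3 kinase genes (109 regions) had 4 IL-4-only (3.67%) and 9 control-only ones (8.26%). The feedback genes such as the SOCS inhibitors and phosphatases (58 regions) had 1 (1.72%) and 4 (6.90%). Differences between these lists were not tested.

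Among those genes the IL-4-only regions included the promoter of Pparg, a nuclear receptor of alternatively polarized macrophages, with heights of 5.67 and 5.95, and a region 47949 bp into Pparg with heights of 6.62 and 12.4. The promoter of Il15ra, the receptor chain for IL-15, was IL-4-only with heights of 7.26 and 5.06, and a region 773 bp upstream of Arg1, the arginase of alternatively polarized macrophages, with heights of 3.98 and 5.77. The other IL-4-only regions of the list lay at Gab2, Ptpn2, Pik3cd, Klf4 and Arg1. One of them, 26534 bp from the TSS of Gab2, had heights of 6.05 and 7.2, above those of the Pparg promoter. The group-only regions named in this paragraph were picked after their values were seen. The control-only regions of the IL-4 target genes lay at Klf4 and Mrc1, among them one 282532 bp upstream of Klf4 with heights of 6.52 and 4.42. Another control-only region lay 95 bp from the TSS of Il21r, a receptor chain that also pairs with the common gamma chain, with heights of 11.8 and 8.96. Among the 124 tested regions of the whole pathway list, the 2 with the lowest p were higher in IL-4. The first, 279350 bp upstream of Klf4, a transcription factor of alternative polarization, had heights of 7.10 and 10.2 in control and 24.4 and 20.5 in IL-4 (log2 difference 1.59, SE 0.37, unadjusted p = 8.0e-05, adjusted p = 0.146 in limma). The second, 326142 bp upstream of Pik3r1, a regulatory subunit of PI3 kinase, had heights of 14.1 and 8.84 in control and 23.2 and 21.8 in IL-4 (log2 difference 1.20, SE 0.34, adjusted p = 0.236). The single region of the ligand gene Il13, the third, 28308 bp upstream, had heights of 11.2 and 9.35 in control and 1.86 and 3.73 in IL-4 (log2 difference −1.75, SE 0.56, adjusted p = 0.318 in limma).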

How the data were processed

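ATAC-seq was performed by the authors on 2 biological replicates per group. According to the labels and the study's methods, the authors aligned reads to mm10 with BWA 0.7.10, handled alignments with SAMtools 0.1.19, called peaks per library with MACS2 2.0.10, removed blacklisted regions and annotated peaks with HOMER 4.2, without pooling replicates. Read shifting for Tn5 and duplicate handling are not given in the sources used here. Each of the 4 deposited peak lists gives a score without a stated unit, which was read as the −log10 of the MACS2 q-value because the lowest deposited scores (1.3 to 1.32) are close to −log10 of 0.05. The study's methods name a q-value cut-off of 0.01, and 133 to 603 deposited peaks per library scored under 2. The authors deposited no counts in these lists, so depth is unknown and a q-value grows with it.

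Peaks of the autosomes (1 to 19) and of X and Y were merged at 1 bp of overlap (Python 3.11.15, pandas 2.3.3), and the highest peak of each library gave the height. Log2 heights of the regions found in every library were quantile-normalised and tested with limma 3.58.1 (R 4.3.3, eBayes with a trend, Benjamini-Hochberg, threshold 0.05). The fit, the merging and the motif search were tested on simulated data. Region values given were those at or nearest the TSS, the largest rise and fall per gene, group-only regions and regions with the STAT6 spacing in at least 2 libraries. The members, lists and rules were chosen with earlier results of these data known. Coordinates are 1-based mm10, and sequences and gene models are from RefSeq GRCm38.p6, the assembly behind mm10, in which all 8 genes matched the promoter table. The replicate numbers were not used as a block in the test reported. The eBayes step draws the SE of each region toward a trend over all regions tested. An SE or p-value therefore does not measure the spread of that region among the 4 libraries alone. The result of one marker list is not reported here.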

Additional observations from a re-analysis of the deposited data

How the results depend on the processing

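No region of the 8 genes passed the adjusted threshold under any of the alternatives tried, which were merging at 500 bp, a height of at least 2, heights above the pooled median, median centring, no normalisation, no variance trend, the replicate block, absent peaks at the lowest height, leaving out each library, and regions within 50 kb. The lowest adjusted p was 0.128. The median log2 difference of these regions was −0.345 with no normalisation between libraries, where the median of all regions tested shifted to −0.21 and 32.1% of them were higher in IL-4 (49.9% after quantile normalisation). Over 17 described regions, 182 of 195 values kept their direction and 13 turned. With no normalisation the Il4ra promoter was at −0.044 and the Jak1 promoter at −0.14. With merging at 500 bp the Irs2 region at 1205 bp was at −0.28 and the one at 30155 bp at 0.19, since neighbouring peaks join there. When 1 library was left out, the ranges that crossed 0 were −0.75 to 0.40 for the Il13ra1 region at 29006 bp (positive without IL-4 1), −0.086 to 0.60 for the Il4ra region at 9219 bp (negative without control 2), −0.58 to 0.019 for the Irs2 promoter (positive without IL-4 1), −0.75 to 0.69 for the Jak1 region at 82443 bp (0.69 without control 2 and 0.26 without IL-4 1), −0.26 to 0.28 for the Jak1 promoter (−0.26 without IL-4 1 and −0.12 without control 1) and −0.50 to 0.29 for the Jak2 promoter (0.29 without IL-4 1 and 0.10 without control 1). Ranges that kept their sign but moved by over 1.5 times were −1.08 to −0.37 for the Tyk2 promoter, −0.78 to −0.22 for the Tyk2 region at 5677 bp, −1.02 to −0.13 for the Jak2 region at 10085 bp, −1.07 to −0.37 for the Irs2 region at 30155 bp, 0.21 to 0.42 for the one at 1205 bp, −1.48 to −0.73 for the Il4ra region at 12775 bp, 0.13 to 0.30 for the Il4ra promoter and 0.41 to 0.83 for the Jak1 region at 66764 bp. The median of the 25 regions ran from −0.12 to 0.019. With only peaks above the pooled median height, 1 of 27 member regions was IL-4-only (the Jak2 region 12110 bp upstream), against 1.89% of all regions. With merging at 500 bp, 3 of 45 were, against 2.48%. IL-4-only regions numbered 4 to 9 when 1 library was left out (9 without IL-4 2, where 9.19% of all regions had the pattern, and 8 without IL-4 1, where 9.37% had it). Leaving out a library can only raise the IL-4-only and control-only counts. Control-only regions numbered 3 to 13 when 1 library was left out (13 without control 2, where 13.7% of all regions had the pattern, and 6 without control 1, where 11.0% had it). With merging at 500 bp, 2 of 45 member regions were control-only, against 4.13% of all regions. Above the pooled median height, 2 of 27 were, against 5.85%. The difference in peaks per library ran from −5 without control 2 to 5 without control 1. The STAT6 spacing was found in 2 member regions, in place of 3, within 50 kb or with peaks above the pooled median. With the replicate block no region of these genes was called, and 11 regions higher and 3 lower were called in the whole table, in place of 4 and 2. Deviations of same-numbered libraries had a correlation of 0.0068 across regions, so the numbers were not treated as pairs. Without control 1 the whole table gave 6 higher and 0 lower, without control 2 it gave 12 and 0, and without either IL-4 library or without the trend it gave 0 and 0. Depth is unknown, so a missing peak cannot be told apart from too few reads.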
